A study of Mus musculus with 50 samples.

Results

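The genes of the proteasome subunits were examined in 50 mammary gland tumors of p53R270H/+WAPCre mice. In these mice Cre, driven by the promoter of the whey acidic protein gene, switches on 1 mutant copy of p53 in the mammary epithelium, and all 5 groups, the vehicle group included, carry that genotype. Female mice, 8 weeks of age at the start, were injected subcutaneously every other day with vehicle, insulin, glargine (a long-acting insulin analogue), X10 (an insulin analogue that binds the IGF1 receptor strongly) or IGF1, and each group holds 10 tumors. Tumors were taken at 1 cm3, 24 h after the last injection, and the study selected tumors with an epithelial to mesenchymal transition (EMT)-like morphology and a latency near the median of their group. Doses are not given in the sources used here, so the compounds were compared as the groups stand.

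The members are the genes named Psma, Psmb, Psmc or Psmd with a number, without Psmb8 and Psmb9, that had a mean level of at least 0.5 RPKM (reads per kilobase of gene length, scaled to a common library size) over the 50 tumors. Of 37701 genes in the table, 39 carried such a name, and 35 were members. Psmb8 and Psmb9 were left out by name, and Psma8 (mean 0.339 RPKM) and Psmb11 (mean 0.0874 RPKM), subunits known from testis and thymus respectively, fell under the minimum. The member nearest to the minimum was Psmd9, with a mean of 17.6 RPKM. All 35 members were among the 16733 genes that passed the same minimum and were tested.

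The proteasome is the main protease of the cytosol and nucleus and degrades proteins that carry ubiquitin chains. Its 20S core is a barrel of alpha rings, encoded by the Psma genes, around beta rings, encoded by the Psmb genes, in which Psmb5, Psmb6 and Psmb7 carry the active sites. The 19S cap binds, unfolds and feeds in the substrate: the Psmc genes encode its ring of ATPases, Psmd1, Psmd2 and Psmd4 other parts of the base, most other Psmd genes the lid, and Psmd5, Psmd9 and Psmd10 chaperones that assemble the cap. Interferon signaling induces Psmb8, Psmb9 and Psmb10, which take the places of Psmb5, Psmb6 and Psmb7 in the immunoproteasome. When proteasome activity is low, the transcription factor Nfe2l1 raises most subunit genes together through antioxidant response elements.

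Upstream sequence was found for 29 of the 35 members in the RefSeq promoter table (GRCm38.p6), and 250 bases before the start site were searched on both strands. The letters TGACNNNGC of the antioxidant response element occurred upstream of 5 members (Psmb5, Psmb6, Psmc6, Psmd9 and Psmd12), or 17.2%, and upstream of 10.1% of all 27025 genes in the table. The CCAAT box occurred upstream of 11 members, or 37.9%, and of 34.5% of all genes. The interferon-stimulated element core GAAANNGAA occurred upstream of Psmb3, Psmd4 and Psmd9, or 10.3%, against 7.16% of all genes, and the gamma-activated site TTCNNNGAA upstream of 0 members, against 7.14% of all genes. None of the 4 motifs occurred in the window of Psmb10, which says only that these letters are not in it. The upstream windows of the catalytic subunits Psmb5 and Psmb6 are shown because they hold the antioxidant element, and that of Psma2 because it is shared with the opposite gene Mrpl32, on which a result below turns. Capitals mark a motif, and each line runs 5′ to 3′ on the strand of the gene.
Psmb5 (chr14:54617996-54618245, minus strand, antioxidant element): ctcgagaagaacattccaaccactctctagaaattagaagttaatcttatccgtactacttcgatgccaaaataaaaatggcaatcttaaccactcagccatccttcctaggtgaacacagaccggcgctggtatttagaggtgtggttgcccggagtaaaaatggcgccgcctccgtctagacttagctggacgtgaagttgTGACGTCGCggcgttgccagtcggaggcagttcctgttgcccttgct
Psmb6 (chr11:70525107-70525356, plus strand, antioxidant element): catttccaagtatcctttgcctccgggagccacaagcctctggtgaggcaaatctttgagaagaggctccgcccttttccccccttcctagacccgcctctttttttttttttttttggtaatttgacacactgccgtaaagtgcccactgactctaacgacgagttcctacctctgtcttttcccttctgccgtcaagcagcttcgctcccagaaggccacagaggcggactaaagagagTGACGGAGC
Psma2 (chr13:14612992-14613241, plus strand, CCAAT box): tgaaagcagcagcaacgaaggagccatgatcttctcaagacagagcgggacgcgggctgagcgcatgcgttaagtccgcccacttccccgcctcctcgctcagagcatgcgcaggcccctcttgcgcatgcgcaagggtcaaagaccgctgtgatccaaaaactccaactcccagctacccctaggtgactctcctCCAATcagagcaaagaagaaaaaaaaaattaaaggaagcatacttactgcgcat

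RNA was Poly-A selected and sequenced on the Ion Proton. Library sizes were recovered from the steps between RPKM values: the smallest held 26.6 M and the largest 51.9 M reads, and group medians lay from 35.4 M (X10) to 44.0 M (vehicle). Members had between 674 and 36820 reads in a tumor, so that counting error was small beside the spread between tumors. Of the tissue markers, the summed RPKM of 6 mesenchymal markers ranged from 3188 to 27680 over the tumors and that of 6 epithelial markers from 9.58 to 5098, in both cases with the extremes in the vehicle group except for the epithelial minimum, an IGF1 tumor. The sums ran from 17.9 to 600.1 RPKM for 5 adipocyte, 2.77 to 4251 RPKM for 5 skeletal muscle and 40.3 to 122 RPKM for 4 endothelial markers. In whole tumors, fewer cells of a type and less RNA per cell cannot be told apart. Nothing in the labels ties tumors to litters or sequencing days, and each tumor was counted as 1 replicate. Tumors are named by their group and number in the labels, with vehicle for those titled untreated.

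Proteasome subunit genes were among the strongly expressed genes of these tumors. Mean levels were between 17.6 and 296 RPKM, with a median of 110 RPKM, against a median of 10.2 RPKM over all genes tested. The highest were Psmd2, a large scaffold subunit of the base (296 RPKM, range 185.98 to 574), the ATPase Psmc3 (277 RPKM, range 205 to 420) and the alpha subunit Psma7 (267 RPKM, range 175 to 413). The lowest were all 3 assembly chaperones, Psmd9 (17.6 RPKM, range 12.0 to 24.1), Psmd10 (18.0 RPKM, range 11.1 to 28.5) and Psmd5 (41.7 RPKM, range 22.3 to 57.8). The order depends on the gene length by which the authors divided: the length recovered from the values was, within 0.5 bp, the median transcript length of GENCODE M21 for 17 members, and the longest transcript was over 2 times that length in 12. With the longest transcript instead, an alternative chosen after the data were seen, Psmd2 went from rank 1 to rank 13, whereas Psmc3 stayed at rank 2 and the 3 chaperones remained lowest, and the orders of all 35 members had a Spearman correlation of 0.607. Psma2, Psmc5 and Psmd13 overlap annotated genes on their own strand and Psma3, Psma6, Psmb7, Psmc3, Psmd1 and Psmd13 on the opposite strand. Reads in the former overlaps may be left out or counted for the other gene.

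**Figure D1:**
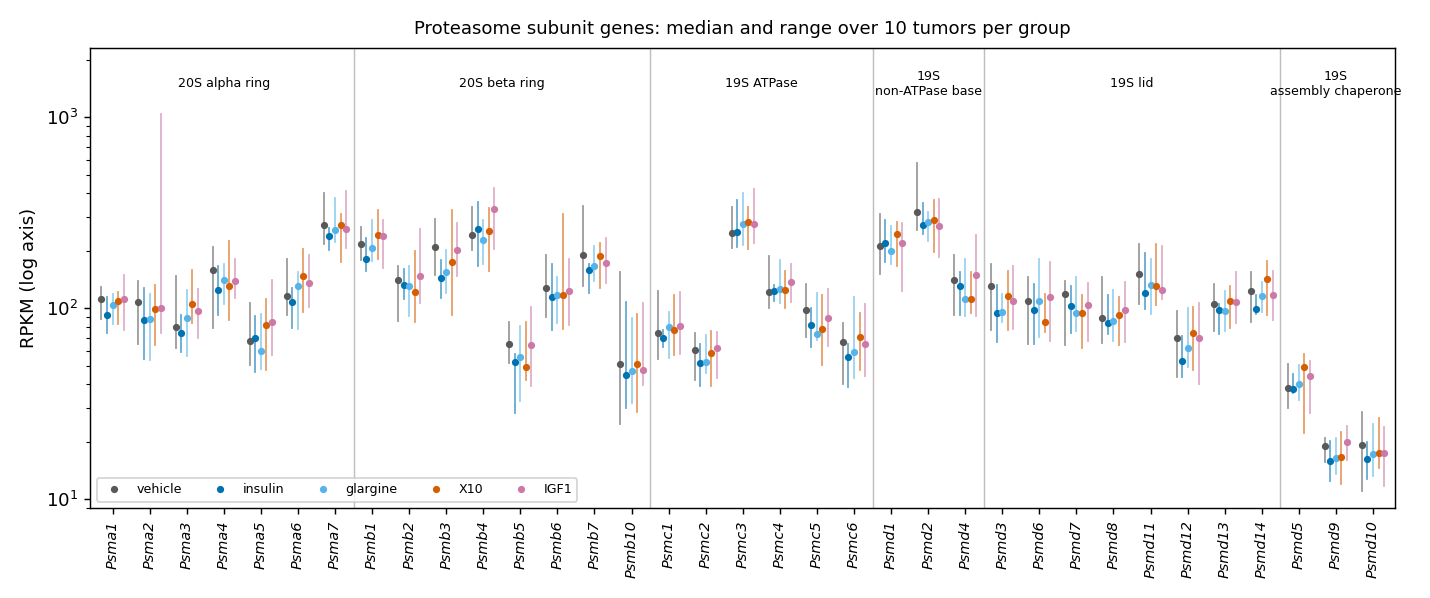
Level of each of the 35 proteasome subunit genes in RPKM (log axis), ordered by subcomplex: dots are the medians and vertical lines the lowest to highest values of the 10 tumors in each of the 5 groups. The groups overlap for every gene, the 3 assembly chaperones on the right are lowest, and the long line at Psma2 is 1 IGF1 tumor at 1043 RPKM.

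Most members varied less between tumors than the median gene tested. The standard deviation (SD) of log2(RPKM + 0.5) over the 50 tumors had a median of 0.31 over the members and 0.42 over all genes tested, and 33 of 35 members were under the latter. The genes tested had a lower median level than the members (10.2 against 110 RPKM), and the part of level in this comparison was not tested. The steadiest members were the ATPase Psmc4 (SD 0.21), the alpha subunit Psma1 (SD 0.21) and the chaperone Psmd9 (SD 0.23). Psmc4 differed 1.86-fold between its lowest tumor, vehicle_197 with 100.4 RPKM, and its highest, vehicle_162 with 186.7 RPKM. The most variable were Psma2 (SD 0.61), the inducible catalytic subunit Psmb10 (SD 0.57) and the constitutive catalytic subunit Psmb5 (SD 0.39). Without the single tumor IGF1_136, the SD of Psma2 was 0.36.

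Tumors with a high level of 1 member tended to have high levels of the others. Of 595 pairs, 563 had a positive Pearson correlation (r), and the mean r was 0.33, against 0.026 over all pairs of tested genes. These correlations are descriptions over the same 50 libraries, which share depth and cell composition. The mean r was 0.40 between 20S genes, 0.31 between 19S genes and 0.32 between a 20S and a 19S gene. Among the subcomplexes it was highest for the 6 ATPases (0.45) and the 8 beta subunits (0.43), and lowest for the 3 assembly chaperones (0.096) and the 3 other base subunits (0.12). The closest pairs were Psma3 and Psma6 (r = 0.81), Psma5 and Psmb4 (r = 0.79), and Psma6 and Psmc1 (r = 0.76).

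**Figure D2:**
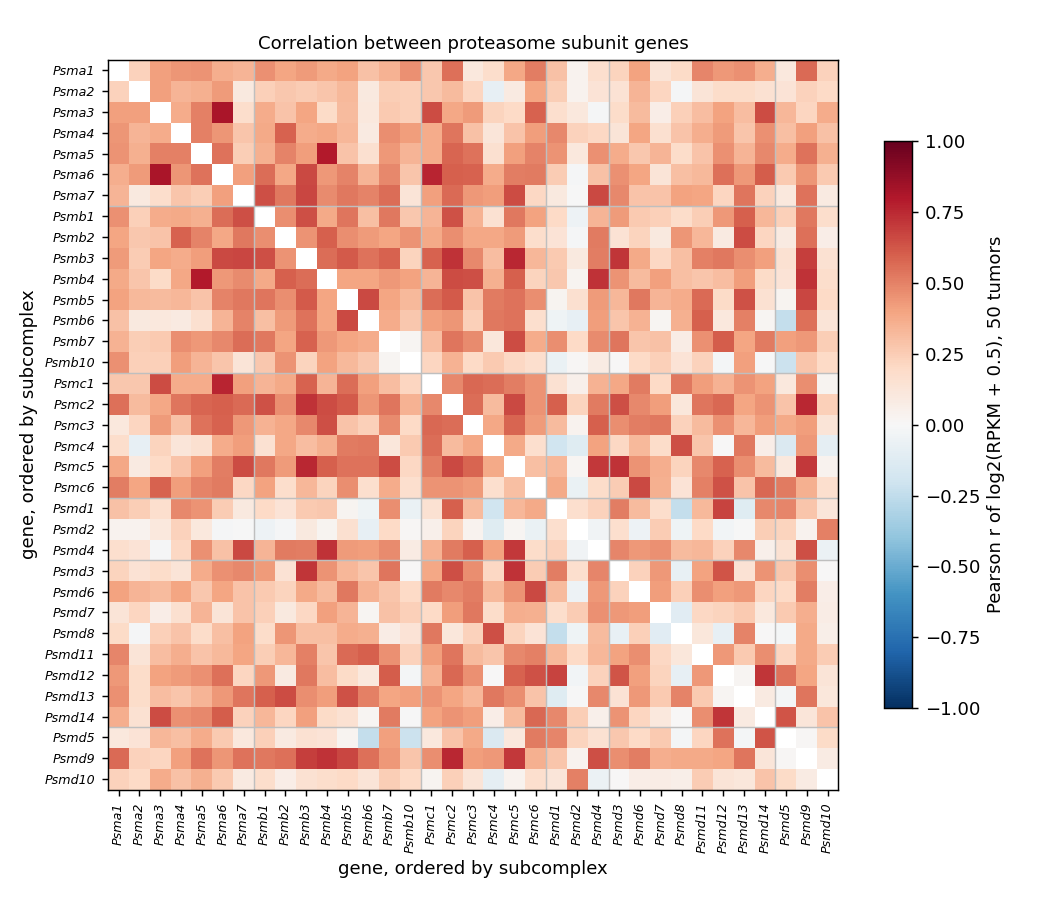
Pearson correlation of log2(RPKM + 0.5) over 50 tumors between each pair of the 35 members, ordered by subcomplex; red is positive, blue negative, and the diagonal is blank. Most pairs are red, whereas the rows of Psmd2 and Psmd10 are pale.

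The member most like the others was the ATPase Psmc2, with a mean r of 0.49, followed by Psmb3 (0.45) and Psmc5 (0.43). The least like them were Psmd2 (0.078), Psmd10 (0.16) and Psmd5 (0.19). Psmd2 and Psmd10, though, were highest in the same tumor, vehicle_197, with 574 and 28.5 RPKM. Psmd8 and Psmb10 stood at 0.20 each, and Psma2 at 0.22, or 0.33 without tumor IGF1_136.

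A mean z-score over the members was taken as a description of each tumor. It was lowest in the tumors insulin_21 (-1.23), insulin_13 (-1.13) and X10_100 (-0.98), in which 3, 1 and 6 of the 35 members lay above their own median. It was highest in IGF1_135 (1.28), X10_113 (1.09) and vehicle_195 (0.94), in each of which 32 members did. In insulin_13 a single gene, Bpifa2, known from salivary glands, held 84726 RPKM, or 11.3% of the summed RPKM of that tumor, against at most 4.86% for the highest gene of any other tumor, and its part in the members' levels there was not tested. Group medians of the score ran from -0.27 in both the insulin and the glargine groups to 0.16 with X10, 0.22 with IGF1 and 0.30 with vehicle, and the ranges of all 5 groups overlapped. Over the 50 tumors its r was 0.43 with the same score over 5 proliferation genes, -0.28 with that over 6 leukocyte markers, -0.27 with 4 endothelial, -0.10 with 6 epithelial and -0.17 with 6 mesenchymal markers. Its r was -0.05 with library size.

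The 10 other genes whose levels followed the members' mean z-score most closely had r between 0.74 and 0.80 over the 50 tumors. They were Alyref, an mRNA export adaptor (r = 0.80), Birc5, an inhibitor of apoptosis that acts in mitosis (r = 0.80), the translation factor Eif4h (r = 0.79), Prpsap1 (r = 0.76), the nucleoside diphosphate kinase Nme1 (r = 0.76), Utp3 (r = 0.76), Sumf2 (r = 0.75), 2700094K13Rik (r = 0.75), the ribosome-associated chaperone Dnajc2 (r = 0.74) and the spliceosome component Bud31 (r = 0.74). With values centred within the treatment groups their r was between 0.70 and 0.83. At the other end was Klhl24 (r = -0.68). Among gene groups chosen after the data were seen, the score had an r of 0.72 with 12 TRiC and prefoldin genes, which fold new proteins, 0.71 with 75 mitochondrial and 0.45 with 82 cytosolic ribosomal protein genes. Long genes tended to lie at the negative end, with a Spearman correlation of -0.37 between exonic length and r across 13483 protein-coding genes, which are not independent replicates. The median exonic length was 2808 bp for the members and 4412 bp for those genes, and the part of gene length in these likenesses was not tested.

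Whether chronic insulin or an analogue changes proteasome subunit levels was tested with limma on log2(RPKM + 0.5), with Benjamini-Hochberg adjustment over the 16733 genes. No member passed an adjusted p-value of 0.05 in any of the 7 comparisons of groups or in the test for any difference among the 5 groups. Few other genes did either: 0% of all genes in insulin against vehicle, 0% in glargine against vehicle, 0.0657% in X10 against vehicle, 0.00598% in IGF1 against vehicle, 0.155% in X10 and IGF1 against the other 3 groups, 0% in glargine against insulin, 0.102% in X10 against insulin and 0.102% in the test over all groups. These small shares moved with single tumors and with the settings: the 26 genes called in X10 and IGF1 against the other 3 groups were 54 without insulin_13 and 59 without vehicle_197, and 14 with library size and 2 with the share of processed pseudogenes as a covariate. The 17 in X10 against insulin were 47 without insulin_13, and 8 and 9 with these covariates, and the 11 in X10 against vehicle were 1 and 2 with them. The 17 in the test over all groups were 29 without insulin_13, 10 without vehicle_197 and 0 without IGF1_136, without insulin_21 or when library size was a covariate, and 6 with quantile normalization. The count of members was 0 in each of these fits. The members' 95% confidence intervals reached a median of 0.27 on the log2 scale to either side between 2 groups and 0.17 for X10 and IGF1 against the other 3. The comparisons share tumors: the 10 vehicle tumors enter 5 of the 7 and the 10 insulin tumors 4, and X10 against insulin shares both of its groups with X10 and IGF1 against the other 3.

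Insulin tumors had lower proteasome subunit levels than vehicle tumors for 31 of the 35 members. The median log2 fold change of the members was -0.20, whereas that of all genes tested was 0.03, and 45.5% of all genes were lower. At an unadjusted p under 0.05, 12 members were lower and 0 were higher, or 12 of 35, against 11.1% of all genes in either direction. All 7 alpha subunits and all 8 lid subunits had a negative log2 fold change.

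The largest difference was in Psmb3, a structural beta subunit (chr11:97703399-97713500, plus strand, GRCm38). Its levels were 150 to 294 RPKM (median 210) in vehicle tumors and 112.6 to 179 RPKM (median 144) in insulin tumors. The groups overlapped, with the lowest vehicle tumor inside the insulin range. The log2 fold change was -0.52 ± 0.15 (SE, n = 10 and 10; limma adjusted p = 0.232). Psma1, a subunit of the alpha ring, had 88.3 to 129 RPKM (median 112) with vehicle and 74.5 to 114.8 RPKM (median 92.5) with insulin, and a log2 fold change of -0.27 ± 0.09 (SE; limma adjusted p = 0.306).

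Of the active-site subunits, Psmb5 had 51.9 to 84.5 RPKM (median 65.3) with vehicle and 28.3 to 57.5 RPKM (median 52.3) with insulin. Its log2 fold change was -0.42 (95% confidence interval -0.75 to -0.09; limma adjusted p = 0.361). That of Psmb7 was -0.33 (-0.58 to -0.08; limma adjusted p = 0.342). The lowest insulin values of both were in tumor insulin_21. For Psmb6 it was -0.15 (-0.49 to 0.20), without an unadjusted p under 0.05.

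The count of 12 rested on single tumors. It was 6 without insulin_13, 7 without insulin_21, 8 without vehicle_197 and 7 with quantile normalization, and the median log2 fold change stayed between -0.24 and -0.16 over its alternatives. The summed RPKM of the 6 leukocyte markers was 212 to 489 in insulin and 134 to 505 in vehicle tumors, with 0 values at 0. Its genes Csf1r, Itgam and Ptprc had an unadjusted p under 0.05 (log2 fold changes 0.68, 0.69 and 0.55; 0 passed the adjusted threshold). All 6 epithelial markers had a negative log2 fold change (median -0.59), with sums of 65.0 to 599 RPKM in insulin and 11.2 to 5098 RPKM in vehicle tumors and 0 values at 0 in both, and Krt14 had an unadjusted p under 0.05 (-2.32). The part of these markers in the difference was not tested.

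In the glargine group 30 of 35 members were lower than with vehicle, with a median log2 fold change of -0.10 against 0.02 over all genes, of which 45.9% were lower. Under an unadjusted p of 0.05, 4 members were lower, against 6.23% of all genes in either direction: Psmb3, Psmd3, Psmd2 and Psmb5. Psmb3 was again the member with the smallest p, at 120 to 203 RPKM (median 155) with glargine, and its log2 fold change was -0.41 ± 0.15 (SE; limma adjusted p = 0.789). Psmd3, a lid subunit, had 85.2 to 119 RPKM (median 95.4) with glargine and 76.7 to 170 RPKM (median 131) with vehicle, with a log2 fold change of -0.36 ± 0.13 (SE; limma adjusted p = 0.789). Vehicle tumors spanned the whole glargine range of Psmd3. All 5 adipocyte markers had higher means with glargine than with vehicle (median log2 fold change 1.03), with summed medians of 199 and 60.95 RPKM, sums of 21.1 to 600.1 and 18.7 to 302 RPKM and 1 value at 0, in a vehicle tumor. Of the marker lists, Lep (log2 fold change 1.16), Fabp4 (1.03), Vim (0.58) and Krt14 (-2.37) had an unadjusted p under 0.05 and 0 passed the adjusted threshold. Vim and Krt14 come from mixed lists: 4 of 6 mesenchymal (median log2 fold change 0.17) and 2 of 6 epithelial markers (-0.31) were higher with glargine. Also higher were 5 of 6 leukocyte (0.36), 4 of 5 skeletal muscle (0.735) and 3 of 4 endothelial markers (0.17). The part of these markers in the glargine values was not tested.

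X10 and IGF1 were compared with vehicle in the same way. With X10, 22 of 35 members were lower and the median log2 fold change was -0.07, against -0.03 over all genes, of which 55.6% were lower, and with quantile normalization it was 0.01, with 18 members higher in place of 13. At an unadjusted p under 0.05 there were 5 members, 3 lower (Psmd2, Psmc5 and Psmd9) and 2 higher (Psmd5 and Psma3), against 11% of all genes. This count was 1 with the share of processed pseudogenes as a covariate, and 3 with quantile normalization, with library size as a covariate or with only the groups compared. The ATPase Psmc5 had 50.5 to 117 RPKM (median 78.3) with X10 and 71.0 to 133 RPKM (median 97.6) with vehicle, and a log2 fold change of -0.29 ± 0.13 (SE; limma adjusted p = 0.413). Higher with X10 than with vehicle were all 6 leukocyte (median log2 fold change 0.24) and all 5 skeletal muscle markers (0.51). So were 3 of 6 epithelial, 3 of 6 mesenchymal, 2 of 5 adipocyte and 2 of 4 endothelial markers. At an unadjusted p under 0.05 there were 0 of these markers, and their part was not tested. With IGF1, 21 members were higher, the median was 0.02, as over all genes, of which 53.4% were higher, and only Psmd2 was under an unadjusted p of 0.05, against 8.84% of all genes, and without vehicle_197 it was not. Psmb4, a structural beta subunit, had 204 to 424 RPKM (median 331) with IGF1 and 203 to 338 RPKM (median 243) with vehicle, and a log2 fold change of 0.27 ± 0.15 (SE; limma adjusted p = 0.636). All 6 epithelial markers had a negative log2 fold change in IGF1 against vehicle (median -1.36), with Epcam (-2.27), Krt14 (-2.66) and Cdh1 (-1.26) at an unadjusted p under 0.05, as were the mesenchymal markers Pdgfrb (-0.61) and Vim (0.43), and their part was not tested.

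Psmd2 was lower than in vehicle tumors under all 4 treatments, which share that vehicle group. Its levels were 257 to 574 RPKM (median 319) with vehicle, 245 to 357 (median 273) with insulin, 224 to 320 (median 283) with glargine, 196 to 369 (median 289) with X10 and 185.98 to 372 RPKM (median 271) with IGF1. The highest value, 574 RPKM, was that of vehicle_197 and stood apart from the other 49 tumors, which reached 453 RPKM. The log2 fold change was -0.33 with X10 (limma adjusted p = 0.319) and -0.32 with IGF1 (limma adjusted p = 0.426), and -0.25 and -0.24 without vehicle_197.

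**Figure D3:**
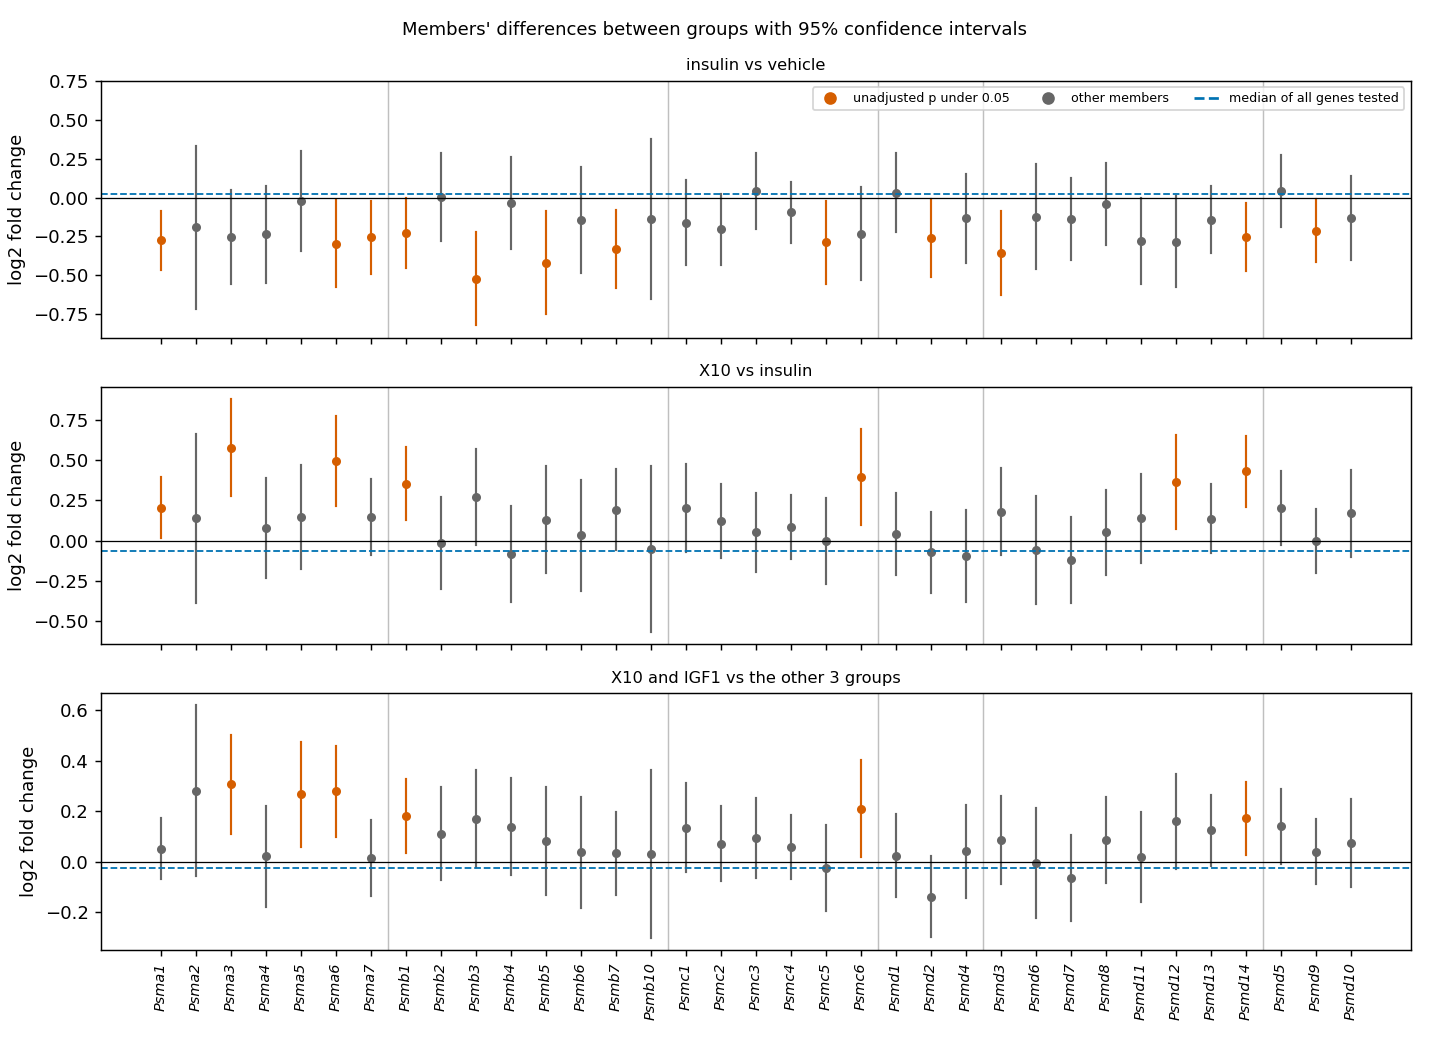
Log2 fold change of each member with its 95% confidence interval (limma) in insulin against vehicle, X10 against insulin, and X10 and IGF1 against the other 3 groups; orange marks an unadjusted p under 0.05, and the dashed line is the median of all genes tested. In the top panel 31 of 35 points lie below 0, in the middle panel 26 above and in the bottom panel 31 above, and no member passed the adjusted threshold.

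Between X10 and insulin, which differ in a single residue of the B chain, 26 of 35 members were higher with X10. The median log2 fold change of the members was 0.14, that of all genes -0.07, and 38.6% of all genes were higher. Without insulin_21 the members' median was 0.08, with 25 members higher. Of the marker lists, 0 of 6 leukocyte (median log2 fold change -0.27), 0 of 4 endothelial (-0.17) and 5 of 6 epithelial markers (0.63) were higher with X10, 0 of them at an unadjusted p under 0.05, and their part in the difference was not tested. At an unadjusted p under 0.05, 7 members were higher and 0 were lower, against 11.3% of all genes: Psmd14, Psma3, Psma6, Psmb1, Psmc6, Psmd12 and Psma1. Psmd14, the lid subunit that removes ubiquitin chains from substrates (chr2:61711694-61800376, plus strand), had 91.6 to 177 RPKM (median 142) with X10 and 93.0 to 117.8 RPKM (median 99.5) with insulin. The insulin tumors lay close together inside the wide X10 range. Its log2 fold change was 0.43 ± 0.11 (SE, n = 10 and 10; limma adjusted p = 0.0961).

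The alpha subunit Psma3 (chr12:70974621-70996347, plus strand) had 83.9 to 159 RPKM (median 106) with X10 and 59.1 to 91.6 RPKM (median 74.1) with insulin, overlapping between 83.9 and 91.6 RPKM. Its log2 fold change was 0.58 ± 0.15 (SE; limma adjusted p = 0.1003), and its neighbour in the ring, Psma6, had 0.49 ± 0.14 (SE; limma adjusted p = 0.125). When only the X10 and insulin tumors were fitted, Psma3 passed the threshold (limma adjusted p = 0.0450), and it was the only member that did so under any alternative.

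Glargine, which differs from insulin in both chains, was then set against it. Of the members 26 were higher with glargine (20 with the share of processed pseudogenes as a covariate), against 48.3% of all genes, with a median log2 fold change of 0.08 against -0.01 over all genes. This median was 0.04 without insulin_21, and 0.04 with that covariate. None of the members (0) had an unadjusted p under 0.05, against 3.96% of all genes. The smallest p-values were those of Psma1 (log2 fold change 0.17, 95% confidence interval -0.02 to 0.36) and Psma3 (0.24, -0.06 to 0.55; limma adjusted p = 0.990 for both), and both intervals span 0. The adipocyte markers Fabp4, Adipoq and Cfd had an unadjusted p under 0.05 here (log2 fold changes 1.09, 1.801 and 1.91), as did the mesenchymal marker Vim (0.51). Of the 6 mesenchymal markers, though, only 3 were higher with glargine (median log2 fold change 0.06), against all 5 adipocyte markers (1.085). The part of these markers was not tested either.

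When the 20 X10 and IGF1 tumors were set against the other 30, 31 of 35 members were higher, with a median log2 fold change of 0.08 against -0.02 over all genes, of which 43.6% were higher. At an unadjusted p under 0.05, 6 members were higher (Psma3, Psma6, Psma5, Psmb1, Psmd14 and Psmc6) and 0 were lower, against 10.5% of all genes. In this contrast the mesenchymal markers Pdgfrb (log2 fold change -0.37) and Col1a1 (-0.60) had an unadjusted p under 0.05, and 0 markers passed the adjusted threshold. The mesenchymal list as a whole went mostly the other way, with 4 of 6 markers higher (median 0.12). In contrast, 5 of 6 epithelial (median -0.40) and all 5 adipocyte markers (median -0.49) had a negative log2 fold change. The part of these markers in the members' values was not tested. The count was 9 with upper quartile scaling and with the share of processed pseudogenes as a covariate. Of the 6, Psma3, Psma6 and Psma5 are alpha subunits, and all 7 alpha and all 8 beta subunits had a positive log2 fold change. Psma3 had a log2 fold change of 0.31 ± 0.10 (SE, n = 20 and 30; limma adjusted p = 0.166) and Psma6 one of 0.28 ± 0.09 (SE; limma adjusted p = 0.177). In the test for any difference among the 5 groups, 7 members had an unadjusted p under 0.05, against 13.1% of all genes, led by Psmb3 (limma adjusted p = 0.172) and Psmd14 (limma adjusted p = 0.233). This count was 11 with library size or the share of processed pseudogenes as a covariate, with 12.05% and 10.29% of all genes.

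Psmb10 (chr8:105935735-105938444, minus strand) is the only member known to be induced by interferon. Its levels were 24.8 to 155 RPKM (median 51.2) in vehicle, 30.1 to 108 (median 44.9) in insulin, 31.8 to 88.3 (median 46.7) in glargine, 28.5 to 92.8 (median 50.8) in X10 and 39.6 to 106.9 RPKM (median 47.7) in IGF1 tumors. Each group held both low and high tumors, and the 5 ranges overlapped. Over the 50 tumors Psmb10 correlated with the other immunoproteasome subunits, Psmb8 (r = 0.82, rho = 0.81) and Psmb9 (r = 0.78, rho = 0.76), each with a permutation p of 1e-05, the smallest that 100000 permutations can give, and an adjusted p of 2e-05 over the 12 relations computed. With Psmb7, whose place it takes, r was 0.02 and rho 0.10 (permutation adjusted p = 0.894 and 0.530).

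The interferon-induced activators of the core, Psme1 (r = 0.68, rho = 0.64) and Psme2 (r = 0.64, rho = 0.61), followed Psmb10 as well, whereas the activator Psme3, which interferon does not induce, did not (r = -0.02, rho = -0.002; permutation adjusted p = 0.894 and 0.991). Reads of Psme2 may be split with its near-identical copy Psme2b. The transcription factor Irf1 (r = 0.79, rho = 0.73) also followed it, and Psme1, Psme2 and Irf1 each had a permutation adjusted p of 2e-05 for r and for rho. Weaker relations were found with Nlrc5, the activator of MHC class I genes (r = 0.42, rho = 0.40; permutation adjusted p = 0.00411 and 0.00726), and with the leukocyte gene Ptprc (r = 0.41, rho = 0.41; permutation adjusted p = 0.00498 and 0.00681). Some members had an r with Psmb10 as large as these 2, such as Psma1 (0.46) and Psmb2 (0.45), which were not tested. Its mean r with the other members was 0.20, and the lowest was -0.21, with Psmd5.

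Psmb5 (r = 0.32, rho = 0.29; permutation adjusted p = 0.0301 and 0.0524) and Psmb6 (r = 0.27, rho = 0.30; permutation adjusted p = 0.0673 and 0.0472) passed by 1 of the 2 measures only. Without the 2 tumors farthest from the median of Psmb10, r was 0.77 with Psmb8, 0.72 with Psmb9, 0.61 with Psme1, 0.56 with Psme2, 0.72 with Irf1, 0.33 with Nlrc5, 0.35 with Ptprc, 0.34 with Psmb5, 0.27 with Psmb6, 0.12 with Psmb7 and 0.07 with Psme3. With values centred within groups, r was 0.83 with Psmb8, 0.78 with Psmb9 and -0.02 with Psmb7. The 6 leukocyte markers summed to 134 to 505 RPKM in vehicle, 212 to 489 in insulin, 193 to 585 in glargine, 148 to 414 in X10 and 155 to 586 RPKM in IGF1 tumors, with 0 values at 0, and their part in these relations was not tested.

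**Figure D4:**
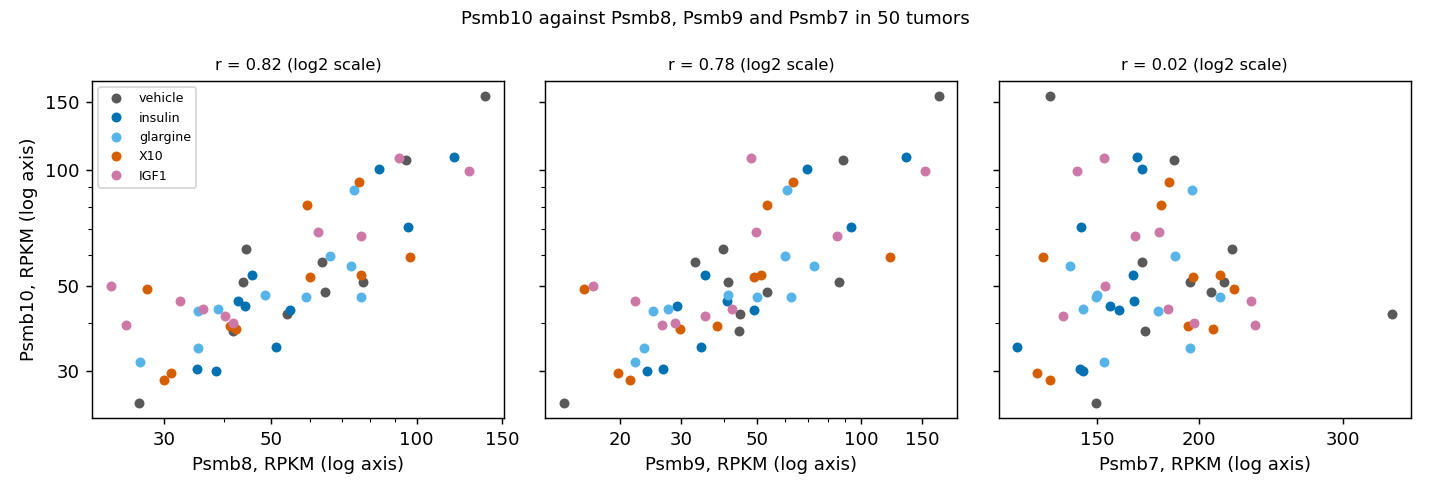
RPKM of Psmb10 against Psmb8, Psmb9 and Psmb7 in the 50 tumors (log axes), colored by group. Psmb10 is high where Psmb8 (r = 0.82) and Psmb9 (r = 0.78) are high and shows no common slope with Psmb7 (r = 0.02), and the highest point, at 155 RPKM, is vehicle_186.

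The balance of inducible to constitutive catalytic subunits varied widely between tumors, and no difference between groups passed the test. The ratio of Psmb10 to Psmb7 was 0.123 to 1.18 (median 0.279) over the 50 tumors, that of Psmb8 to Psmb5 0.311 to 2.62 (median 0.895), and that of Psmb9 to Psmb6 0.0957 to 1.28 (median 0.379). Each ratio is between genes and depends on the gene lengths used, so only its differences between tumors are read. Two-sided permutation tests of the log2 ratios (3 ratios and 5 comparisons) gave 0 adjusted p-values under 0.05 and 0 unadjusted p-values under 0.05. The smallest unadjusted p was 0.224, for Psmb8 to Psmb5 in X10 and IGF1 against the other 3 groups, with mean log2 ratios of -0.26 ± 0.76 (SD, n = 20) and -0.01 ± 0.66 (SD, n = 30) and an adjusted p of 0.989.

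Psma2, a subunit of the alpha ring, reached 1043 RPKM in tumor IGF1_136. In the other 49 tumors it ranged from 53.3 to 146 RPKM, with a median of 94.5 RPKM, so that this tumor was 11.0-fold above that median. Psma2 lies on the plus strand of chr13:14613240-14674236 (GRCm38), and Mrpl32, a subunit of the mitochondrial ribosome, lies on the minus strand of chr13:14608184-14613165. Of the 250 bases printed above, 204 are upstream of both in RefSeq. Mrpl32 was at 310 RPKM in the same tumor, against 16.8 to 46.7 RPKM in the others, and was 10.5-fold above their median.

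The next gene, AW209491, starts 16.9 kb further on, inside the annotated extent of Psma2 and on the same strand. It had 51.1 RPKM in IGF1_136, against 3.45 to 9.63 RPKM elsewhere, a 9.68-fold difference. The next tested protein-coding genes were near their medians in that tumor: Arid4b, with its start site at -550 kb from that of Psma2, had 8.65 RPKM (median of the others 11.0) and Gli3, at 850 kb, had 12.0 RPKM (median of the others 12.8). Over the genome, 22 protein-coding genes lay over 3 above their median on the log2 scale in IGF1_136. Among the 10457 genes with a median of at least 5 RPKM, Psma2, Mrpl32 and AW209491 ranked 4, 5 and 9 by their log2 difference from the median in that tumor. Without it, r with Psma2 was 0.78 for Mrpl32 and 0.60 for AW209491 over 49 tumors. Such values were not limited to these genes: r was 0.75 for Tbce (-574 kb), 0.73 for Mplkip (3082 kb) and 0.67 for B3galnt2 (-659 kb). In IGF1_136 these lay at 0.93, 1.25 and 0.82 times the median of the others. The remaining genes of the window had an r from -0.23 (Lyst) to 0.51 (Arid4b). DNA copy number was not analysed here.

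**Figure D5:**
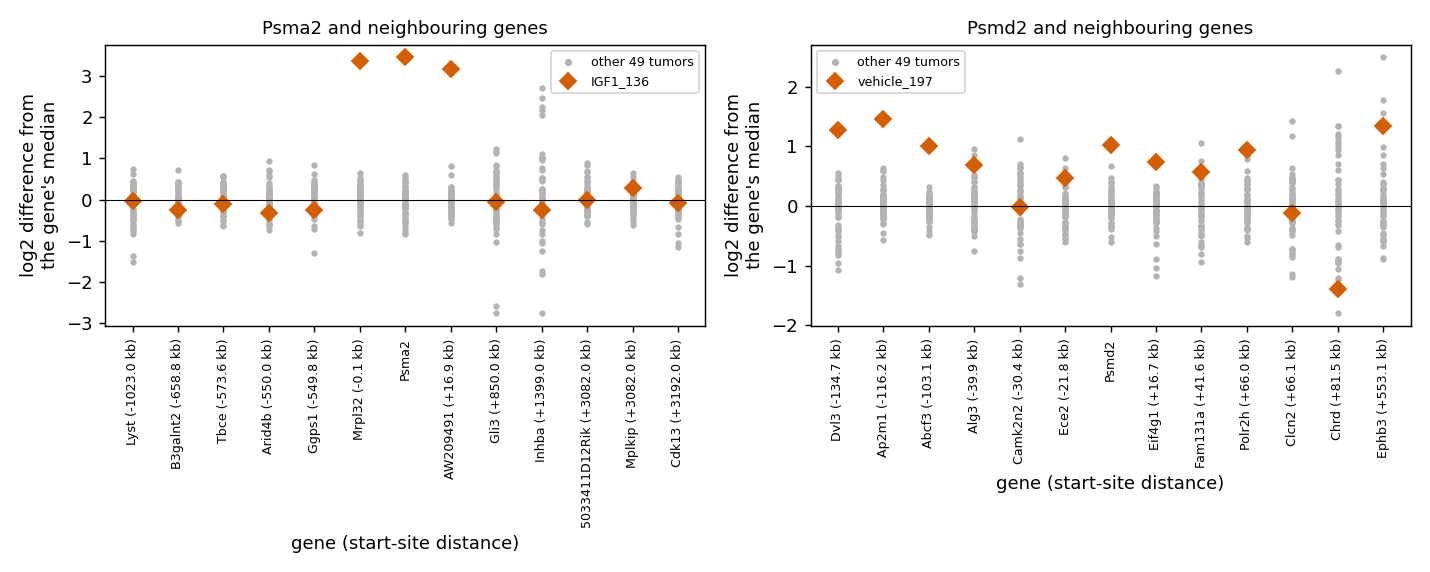
Log2 difference of each gene from its median over the 50 tumors, for Psma2 (left) and Psmd2 (right) with the 6 nearest tested protein-coding genes on either side in chromosome order, labelled with the distance of their start site in kb. Grey points are the other 49 tumors and orange diamonds IGF1_136 (left) or vehicle_197 (right); on the left only Mrpl32, Psma2 and AW209491 lie above 3, and on the right Psmd2 (1.02) and several neighbours lie between 0.5 and 1.5.

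Psmd2, the member least like the others, was more like the genes beside it. It lies at chr16:20651652-20663414 (GRCm38, plus strand), and its mean r with the 10 nearest tested protein-coding genes was 0.49, against 0.078 with the other members. Its r was 0.77 with Ap2m1, a clathrin adaptor subunit, 0.72 with the RNA polymerase subunit Polr2h, 0.72 with Abcf3 and 0.71 with the translation factor Eif4g1. In vehicle_197 Ap2m1 was at 802 RPKM (196 to 452 in the others), Abcf3 at 79.0 RPKM (27.8 to 48.8), Eif4g1 at 335 RPKM (88.8 to 253) and Polr2h at 40.9 RPKM (13.7 to 42.9). Dvl3, at 24.2 RPKM (4.36 to 14.4), and the first 3 of these were higher there than in any other tumor. Within the same stretch Camk2n2 and Clcn2 were near their medians, and Chrd, at 0.668 RPKM (median of the others 2.56), was lower than in 48 tumors. Without that tumor r was 0.68 with Ap2m1, 0.68 with Polr2h, 0.60 with Abcf3 and 0.66 with Eif4g1.

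For 8 of the 35 members (Psma2, Psma3, Psma4, Psmb6, Psmd2, Psmd5, Psmd7 and Psmd12) the mean r with the neighbours was above that with the other members. Psmd7 had a mean r of 0.51 with its neighbours and 0.25 with the other members, Psma4 0.51 and 0.35, and Psmd12 0.47 and 0.35. For Psmd9 these values were 0.06 and 0.43, and for Psmc2 0.28 and 0.49. Of the members' highest tumors, that of Psmb2 (IGF1_158, log2 0.95 above the gene's median) had 7 of 10 neighbours over 0.5, and that of Psmd13 (IGF1_160, 0.57) had 9 of 10. Psmb10, highest in vehicle_186 at 1.69, had 0 of 10 there.

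The rest of the pathway was followed in 39 listed genes, of which 36 were tested. None passed the adjusted threshold in any of the 7 comparisons of groups (limma). At an unadjusted p under 0.05 there were 7 in insulin against vehicle (11.1% of all genes), 2 in glargine (6.23% of all genes), 5 in X10 (11% of all genes) and 1 in IGF1 against vehicle (8.84% of all genes), 1 in X10 and IGF1 against the other 3 groups (10.5% of all genes), and 0 in glargine (3.96% of all genes) and in X10 against insulin (11.3% of all genes). Of the activators and the inhibitor of the core, Psme2 had the smallest p, with a log2 fold change of -0.43 ± 0.19 in insulin against vehicle. Of the core assembly chaperones this was Psmg3 (-0.31 ± 0.14 in the same comparison), and all 5 of that list had a negative log2 fold change in each of insulin, glargine and X10 against vehicle, which share the vehicle tumors and in which 45.5%, 45.9% and 55.6% of all genes did. Of the genes associated with the cap it was the ubiquitin receptor Adrm1 (-0.43 ± 0.12 in X10 against vehicle; limma adjusted p = 0.188). Of the genes that control subunit transcription, Ddi2, the protease that activates Nfe2l1, had 0.19 ± 0.10 in insulin against vehicle, and of the left-out subunits Psmb8 had -0.29 ± 0.29 in IGF1 against vehicle (SE throughout). None of the 8 interferon and antigen presentation genes, the 5 proliferation genes or the marker genes passed the threshold in these comparisons (limma). An unadjusted p under 0.05 was found in 1 of 56, 3 of 35 and 19 of 224 tests over these lists and the 7 comparisons, against the 3.96% to 11.3% of all genes in the single comparisons.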

How the data were processed

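Poly-A RNA of 50 tumors was sequenced by the authors on the Ion Proton, aligned to GRCm38 (TopHat2 2.0.10 and Bowtie2) and counted per gene (HTSeq 0.6.1 with its default settings, under which a read counts only for a gene on its strand). The deposited unit is RPKM, in 1 table. The paper describes an RPKM table that was made with DEXSeq for its exon analysis, from read counts divided by gene length and by the size of the library. All 50 columns matched a sample. Columns titled untreated were taken as vehicle, and 1 titled IFG1 in place of IGF1 as an IGF1 tumor.

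The members and gene lists were chosen with earlier results of these data known. Genes with a mean of at least 0.5 RPKM were tested with limma 3.58.1 (R 4.3.3) on log2(RPKM + 0.5), which understates changes of low genes, with 5 groups in 1 fit and an intensity trend. Named were the 2 members with the smallest p in each comparison, extremes of level, spread and likeness, the catalytic subunits, the gene of each pathway list with the smallest p, and the 10 genes most like the members' mean z-score; Psmd14, Psma3, Psma6 and others at an unadjusted p under 0.05, and the neighbours of Psma2 and Psmd2, were named after their values were seen. Values of some single genes that this rule names are not reported here. Lists covered activators, assembly, cap-associated, ubiquitin, shuttle and transcription genes, Psmb8 and Psmb9, interferon and antigen presentation, proliferation, and epithelial, mesenchymal, leukocyte, adipocyte, skeletal muscle and endothelial markers. Ratios and correlations were tested with 100000 permutations. Neighbours were the 5 tested protein-coding genes on either side in GENCODE M21 (GRCm38). Library sizes and lengths were recovered from the steps of the values: 93.9% to 99.7% of low values in a tumor were whole reads. The scripts were tested on simulated data. Alternatives were other pseudocounts, filters and scalings, no trend, and only the groups compared; covariates and left-out tumors were added after the data were seen.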

Additional observations from a re-analysis of the deposited data

Results flagged for a closer look

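In each group of 10 tumors, 190 in all (35 members and 3 ratios in 5 groups), the highest and lowest tumors were compared with the rest on the log2 scale, and 11 stood apart by a gap that, as a share of the group's range, was over Dixon's 95% critical value. Chance flags about 1 in 20 groups, and the members move together, so flags in 1 tumor are not independent.

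High tumors were Psma2 at 1043 RPKM in IGF1_136 (the other 9 at 74.0 to 146), Psmb6 at 311 RPKM in X10_95 (others 78.1 to 134.6) and Psmb7 at 344 RPKM in vehicle_194 (others 131.5 to 219). Low tumors were Psmb5 at 28.3 RPKM (others 45.7 to 57.5), Psmb7 at 120 RPKM (others 142.9 to 170) and Psmd13 at 73.7 RPKM (others 89.2 to 105.3), all in insulin_21, the tumor with the lowest mean z-score of the members. Psmd2 at 185.98 RPKM (others 257 to 372) and Psmd10 at 11.7 RPKM (others 16.4 to 23.8) were low in IGF1_158. The other 3 were Psma7 at 175 RPKM in X10_116 (others 234 to 312), Psmd5 at 22.3 RPKM in X10_105 (others 38.2 to 57.8) and Psmd7 at 64.3 RPKM in vehicle_197 (others 98.7 to 138).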

How the results depend on the processing

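No paired analysis was possible because the groups share no replicate numbers. Over the alternatives run, 389 of 391 values kept their direction and side of the threshold or moved by less than the spread between tumors. The exceptions were both in X10 against insulin with only the groups compared in the fit, which called 1 member, Psma3 (log2 fold change 0.58); fewer samples set the spread there. The median log2 fold change of the members in X10 against vehicle lay between -0.07 and 0.01 and changed sign with quantile normalization. The mean r between members lay between 0.26 and 0.34, and 8 or 9 of the 12 relations of Psmb10 passed the threshold. Members had at least 674 reads in each tumor, and whether depth or the number of tumors limits precision more was not tested. Reads of overlapping genes and of processed pseudogenes (Psmb6-ps at a mean of 3.38 RPKM and Psmb7-ps2 at 1.73 RPKM) may be miscounted, and levels between genes depend on the gene lengths used.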
